A study of Homo sapiens with 6 samples.

Results

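Metallothionein gene expression was examined in LX-2 cells, an established human hepatic stellate cell line, with and without overexpression of fibroblast activation protein α (FAPα). The genes were 8 of the 60748 genes in the deposited table, taken from it by their symbols: the metallothioneins MT1A, MT1E, MT1F, MT1G, MT1M, MT1X and MT2A, and MTF1, the transcription factor that senses zinc. RNA was sequenced in 3 libraries of cells transduced with lentivirus carrying the empty vector GV367 (LX-2Vector) and 3 libraries of cells transduced with the same vector carrying FAPα (LX-2FAP). Both groups therefore shared the lentiviral backbone with its ubiquitin promoter, EGFP and puromycin resistance, and both were puromycin-selected stable cells cultured for 24 hours, but the number of clones behind each was not stated. Separate cultures were not stated for the replicates either, so the p-values measure only the spread between these libraries, which may be technical.

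Metallothioneins are small, cysteine-rich proteins that hold zinc and copper in thiolate clusters, buffer free metal in the cytosol and bind toxic metals such as cadmium. Their genes are induced by zinc and cadmium through MTF1, which binds metal response elements (MREs) in their promoters, and MT2A also responds to glucocorticoids. The liver is a main site of metallothionein production, mostly in hepatocytes.

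In LX-2 cells metallothionein RNA was almost all MT2A. MT2A was the 1 of 5 tested family members that passed the test, against 5.29% of all tested genes, at 1.19-fold higher with FAPα. It passed in 11 of 16 alternative fits and lost the call when some single libraries were left out. MT1E was the next most abundant and did not pass the test. It lay higher in every LX-2FAP library than in any LX-2Vector library, as 13% of all tested genes did. MT1F, MT1M and MT1X were read at low levels. MT1A and MT1G had no read in any library. MTF1 was present in both groups and did not pass the test.

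The 7 metallothionein genes lie within 76.0 kb of chromosome 16 (GENCODE 29 annotation of GRCh38, from 56608199 to 56684196). MT2A (ENSG00000125148) spans chr16:56608199-56609497 on the plus strand, followed by MT1E (ENSG00000169715, chr16:56625475-56627112), MT1M (ENSG00000205364, chr16:56632233-56633986), MT1A (ENSG00000205362, chr16:56638666-56640087), MT1F (ENSG00000198417, chr16:56657694-56660698), MT1G (ENSG00000125144, chr16:56666731-56668065, minus strand) and MT1X (ENSG00000187193, chr16:56682424-56684196). MTF1 (ENSG00000188786) lies apart, at chr1:37809567-37859620 on the minus strand. All are protein-coding. For MT1E, MT1F, MT1M, MT1X and MT2A the deposited gene lengths exceed the coding frames, so their counts cover untranslated parts of the exons too.

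The coding sequences show how close the family members are, which bears on whether reads can be told apart. The open reading frame without its stop codon was 183 bases in each member except MT1G, which had 186, and the pairs of equal length were 88.5% to 94.5% identical. Below are the gene that passed the test, MT2A, and the members MT1E, MT1F and MT1M, whose counts were compared with it, read from the first GENCODE 29 transcript of each gene on its own strand. Capitals mark bases that differ from MT2A.
MT2A: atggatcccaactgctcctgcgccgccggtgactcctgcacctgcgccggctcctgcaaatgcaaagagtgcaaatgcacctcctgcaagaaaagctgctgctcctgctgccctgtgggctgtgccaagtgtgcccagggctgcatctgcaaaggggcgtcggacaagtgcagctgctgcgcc
MT1E: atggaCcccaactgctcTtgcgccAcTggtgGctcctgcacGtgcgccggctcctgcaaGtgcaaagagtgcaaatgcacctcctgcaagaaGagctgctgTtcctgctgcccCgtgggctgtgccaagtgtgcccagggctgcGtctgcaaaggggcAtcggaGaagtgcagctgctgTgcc
MT1F: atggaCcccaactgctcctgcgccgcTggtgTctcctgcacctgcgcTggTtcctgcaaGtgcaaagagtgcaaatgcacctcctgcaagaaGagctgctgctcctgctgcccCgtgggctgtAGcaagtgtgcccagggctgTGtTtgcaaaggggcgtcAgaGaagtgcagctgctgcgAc
MT1M: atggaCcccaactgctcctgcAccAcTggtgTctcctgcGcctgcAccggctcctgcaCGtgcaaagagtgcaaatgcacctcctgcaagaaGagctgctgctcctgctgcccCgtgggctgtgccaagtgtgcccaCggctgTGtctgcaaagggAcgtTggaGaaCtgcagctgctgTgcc
MT1E differed from MT2A at 14 positions, MT1F at 16 and MT1M at 19, and the differences were spread along the frame. No stretch as long as a sequencing read from the annotated transcripts of MT1A, MT1E, MT1F, MT1G, MT1M or MT2A occurred in a transcript of another gene. For MT1X 11.3% of such stretches were shared with the overlapping locus AC026461.1, so MT1X values are less certain. The strand setting of the counting was not stated.

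The promoters show the sequence that MTF1 reads. RefSeq (GRCh38.p14) entries were matched for MT2A, MT1X and MTF1, 3 of the 8 genes, and for MT1H, MT1B and MT4, metallothioneins of the same cluster that are not among the 8. The MRE core was searched as TGCACNC and TGCGCNC on both strands over the 250 bases before the RefSeq start, and matches did not overlap. For MT2A and MT1X that start lies inside the GENCODE span given above, so the bases searched overlap it. Each promoter below is written 5′ to 3′ on the strand of its gene, with the matched cores in capitals. They are for the gene that passed the test (MT2A, chr16:56608334-56608583, plus strand) and a member that did not pass it (MT1X, chr16:56682220-56682469, plus strand). The last is the gene with the most cores among the matched promoters, which had no read (MT1H, chr16:56669564-56669813, plus strand).
MT2A: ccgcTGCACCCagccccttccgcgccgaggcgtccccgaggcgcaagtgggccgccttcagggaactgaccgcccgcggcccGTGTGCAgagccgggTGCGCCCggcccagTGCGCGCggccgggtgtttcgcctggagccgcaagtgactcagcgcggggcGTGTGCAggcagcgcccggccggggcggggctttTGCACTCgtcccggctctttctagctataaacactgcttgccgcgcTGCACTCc
MT1X: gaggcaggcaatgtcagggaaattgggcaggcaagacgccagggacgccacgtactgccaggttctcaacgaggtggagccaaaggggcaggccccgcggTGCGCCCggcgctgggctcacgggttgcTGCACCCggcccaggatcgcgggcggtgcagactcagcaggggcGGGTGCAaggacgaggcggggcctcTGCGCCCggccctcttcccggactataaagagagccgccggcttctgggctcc
MT1H: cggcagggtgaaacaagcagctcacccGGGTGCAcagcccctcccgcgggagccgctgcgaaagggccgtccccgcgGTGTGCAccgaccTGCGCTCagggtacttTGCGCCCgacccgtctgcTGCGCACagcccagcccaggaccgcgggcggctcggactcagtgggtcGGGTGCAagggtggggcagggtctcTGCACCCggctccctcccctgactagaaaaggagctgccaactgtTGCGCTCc
MT2A held 7 cores, MT1X held 4 and MT1H held 8, while MT1B and MT4 held 3 each and the MTF1 promoter held 0. Among 35116 RefSeq promoters of the same length, 24.8% held at least 1 core, 0.37% at least 4 and 0.0513% at least 6. MT1H and MT1B had 0 counts in every library and MT4 had 1 count in all. Of the matched promoters, the 2 with the most cores thus belonged to the most abundant member and to a gene with no read. The promoters of MT1A, MT1E, MT1F, MT1G and MT1M were not searched. A match is a run of letters and not a measured binding site.

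The libraries held 17355700 to 26352060 counts. The overexpressed gene itself, FAP, was counted 49, 42 and 55 times in the LX-2Vector libraries and 14864, 15160 and 14805 times in the LX-2FAP libraries, as the labels state. The mesenchymal markers VIM, COL1A1 and TIMP1 were abundant (300.8, 34.3 and 131.2 FPKM, fragments scaled to gene length and library depth, means of the LX-2Vector libraries), but the stellate cell markers DES and GFAP and the collagen gene COL1A2 were near 0 (0.0114, 0.0571 and 0.109 FPKM). Of 9 tested stellate and mesenchymal markers 3 were called, against 5.29% of all tested genes. VIM was higher in LX-2FAP (log2 fold change 0.13, adjusted p = 0.0372, edgeR), and COL1A1 (-0.40, adjusted p = 0.0135) and PDGFRB (-0.38, adjusted p = 0.0269) were lower. ACTA2 (-0.36, adjusted p = 0.145) and LOX (-0.87, adjusted p = 0.0528) had estimates below 0 and were not called. Of 4 tested endothelial markers 1 was called, against the same 5.29%. This was VWF, lower from a low level, at 0.239 against 0.111 FPKM (log2 fold change -1.06, adjusted p = 0.0268, edgeR). Of the hepatocyte markers ALB was near 0, at 0.0297 FPKM, and SERPINA1 was at 2.73 FPKM. The summed level of the 5 hepatocyte markers, nearly all of it SERPINA1, ranged from 2.66 to 3.07 FPKM in LX-2Vector and from 2.16 to 2.40 in LX-2FAP. The 5 endothelial markers summed to 1.30 to 1.45 FPKM against 0.974 to 1.198, the 5 immune cell markers to 2.61 to 2.77 against 2.41 to 2.67, and the 5 epithelial markers to 2.80 to 3.42 against 2.27 to 2.90. The immune sum was mostly CD14 (1.93 FPKM in LX-2Vector). Their part in the results was not tested, and in bulk RNA fewer cells with a transcript and less RNA per cell cannot be told apart.

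MT2A was read at a level that few genes reach. Its FPKM was 150.2, 184.7 and 173.6 in the LX-2Vector libraries and 201.2, 192.6 and 199.7 in the LX-2FAP libraries. Each LX-2FAP library lay above each LX-2Vector library, and the LX-2Vector libraries were spread wider (169.5 ± 17.6 against 197.8 ± 4.57 FPKM, SD, n = 3). The LX-2Vector mean ranked 97 among all genes in the table. The counts behind these values were 3618, 2930 and 3344 against 4449, 3210 and 3874.

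After normalization by the trimmed mean of M-values (TMM), MT2A rose by 0.25 on the log2 scale (SE 0.058, 95% confidence interval 0.13 to 0.38), which is 1.19-fold (1.10 to 1.30), with an adjusted p of 0.022 by the edgeR quasi-likelihood test over 18275 tested genes. Of the 5 metallothionein genes with enough counts to be tested, 1 passed an adjusted p under 0.05, against 5.29% of all tested genes, and 1 was called higher, against 2.57%. The call was lost when some single libraries were left out. With LX-2Vector replicate 1 left out the log2 fold change was 0.18 (adjusted p = 0.0505, edgeR, with 2.09% of tested genes called). Leaving out LX-2FAP replicate 2 gave 0.27 (unadjusted p = 0.00063, adjusted p = 0.0626, edgeR, with 0.687% called). Leaving out LX-2FAP replicate 3 gave 0.25 (unadjusted p = 0.0023, adjusted p = 0.125, edgeR, with 0.138% called). In these last fits the estimate hardly changed, and fewer genes were called over the whole table. Over the 16 alternative fits the log2 fold change lay between 0.18 and 0.33 and the adjusted p between 7.04e-06 and 0.164, with the call kept in 11. The study's cutoff of a fold change over 1.2 with p under 0.05 took in 7.89% of tested genes and no metallothionein, as MT2A was just under that fold.

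**Figure D1:**
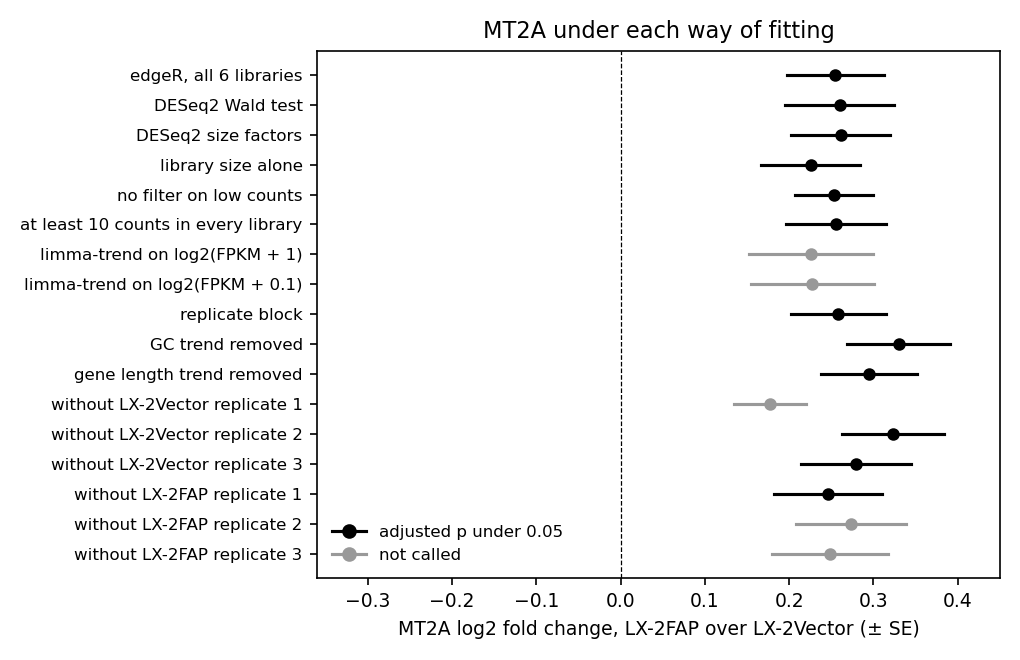
MT2A log2 fold change of LX-2FAP over LX-2Vector under the edgeR fit of all 6 libraries and each alternative, with points for the estimate, bars for its SE, black for an adjusted p under 0.05 and grey for one above it. The points all lie above 0, from 0.18 without LX-2Vector replicate 1 to 0.33 with the GC trend removed.

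MT1E, the member that lies next to MT2A in the cluster, was the second most abundant member. Its FPKM was 15.2, 15.3 and 15.2 in LX-2Vector and 17.2, 15.4 and 17.1 in LX-2FAP. The groups did not overlap, but the lowest LX-2FAP library was almost level with the LX-2Vector libraries (15.2 ± 0.0954 against 16.6 ± 1.04, SD, n = 3). The log2 fold change was 0.15 (SE 0.075, 95% confidence interval -0.0046 to 0.31), and it did not pass the edgeR test (adjusted p = 0.241). MT1E and MT2A were thus 2 of 5 tested metallothioneins whose normalized values did not overlap between the groups, against 26.4% of all tested genes (13% with LX-2FAP higher).

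MT1F and MT1M had estimates below 0 that did not pass the test. The FPKM of MT1F was 1.48, 1.68 and 1.67 in LX-2Vector and 1.52, 1.13 and 1.25 in LX-2FAP, from 38 to 72 counts a library. The groups overlapped through LX-2FAP replicate 1, and the log2 fold change was -0.26 (SE 0.16, 95% confidence interval -0.60 to 0.089, adjusted p = 0.382, edgeR). MT1M, at 20 to 46 counts a library, stood at 3.42, 3.27 and 2.79 FPKM in LX-2Vector and 2.91, 2.15 and 2.67 in LX-2FAP. Again a single LX-2FAP library, replicate 1, reached into the LX-2Vector range, and the log2 fold change was -0.25 (SE 0.20, 95% confidence interval -0.69 to 0.18, adjusted p = 0.513, edgeR). Both estimates stayed below 0 in all 16 alternative fits. Neither was called in those that gave an adjusted p, which DESeq2 did not for these genes.

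MT1X showed no direction that held across libraries. Its FPKM was 1.43, 1.57 and 1.32 in LX-2Vector and 1.91, 1.33 and 1.2001 in LX-2FAP, so that LX-2FAP held both the highest and the lowest library. The log2 fold change was 0.096 (SE 0.19, 95% confidence interval -0.30 to 0.50, adjusted p = 0.818, edgeR), and it became -0.15 without LX-2FAP replicate 1.

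MT1A and MT1G, both inducible forms of the family, were at 0 counts in all 6 libraries. A count of 0 allows up to 3 counts, or 0.114 to 0.173 on the CPM scale (counts scaled to library depth, counting error only). No fold change can be given for them. The cluster is flanked by BBS2, a gene of the ciliary BBSome complex, and NUP93, a nuclear pore gene, both named here for position after their values were seen. They stood at 1.73 ± 0.186 against 1.58 ± 0.0635 FPKM and 7.41 ± 0.164 against 7.50 ± 0.325 FPKM (SD, n = 3, LX-2Vector first), with log2 fold changes of -0.10 and 0.044 and no call.

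Of 14 metallothionein loci outside the chosen members 8 had any count, and only the single-exon MT2A-related pseudogene MT2P1 had enough to be tested. It was counted 28, 14 and 12 times in LX-2Vector and 20, 21 and 30 times in LX-2FAP, with a log2 fold change of 0.45 (SE 0.29, adjusted p = 0.382, edgeR) and overlapping groups. At its short deposited length of 183 bases this came to 4.44 ± 1.35 FPKM in LX-2Vector and 6.18 ± 1.61 in LX-2FAP (SD, n = 3), above the means of MT1M, MT1F and MT1X. MT1XP1, MT1L and MT1DP stayed at 1 to 3 counts a library. MT1JP had 2 counts and MT1P1, MT3 and MT4 had 1 each over all 6 libraries. MT1B, MT1H, MT1HL1, MT1CP, MT1IP and MT1P3 were at 0 counts throughout.

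**Figure D2:**
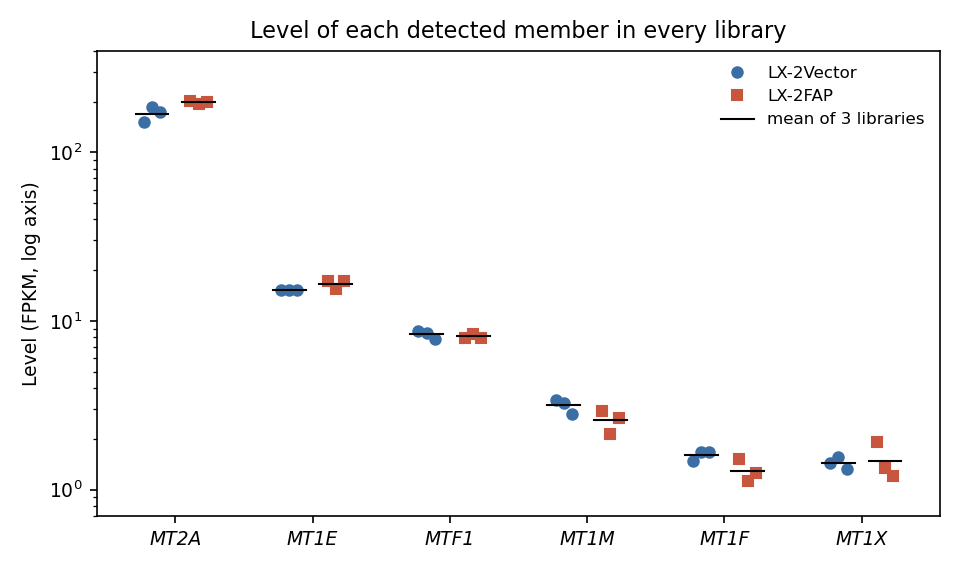
FPKM of each metallothionein and MTF1 (log axis) in the 3 LX-2Vector and 3 LX-2FAP libraries, 1 point a library, with a bar at the group mean. MT2A lies between 150.2 and 201.2 FPKM, MT1E between 15.2 and 17.2, and MT1M, MT1F and MT1X below 4.

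The order of levels within the family was steep at the top and loose at the bottom. Per length, MT2A stood 11.1 times above MT1E in LX-2Vector and 11.9 times in LX-2FAP (ratios of mean FPKM), in 3 of 3 libraries of each group. MT2A made up 88.7% ± 1.06 of the summed metallothionein FPKM in LX-2Vector and 90.0% ± 0.543 in LX-2FAP (SD, n = 3), and MT1E made up 8.02% ± 0.723 and 7.54% ± 0.267. Next came MT1M, which stood 1.96 times above MT1F in LX-2Vector without overlap. MT1F and MT1X overlapped in both groups, at ratios of 1.12 and 1.14, and changed places between them, so their order is not resolved. MTF1 lay between MT1E and MT1M in both groups.

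The lower part of that order depended on the gene length used. The authors' lengths were 914 bases for MT2A, 1052 for MT1E, 1727 for MT1X, 1852 for MT1F and 511 for MT1M. With the length of the first GENCODE transcript instead (786, 704, 450, 690 and 829 bases), a choice made after seeing the data, CPM per kilobase in LX-2Vector were 195.6 ± 19.5 for MT2A and 22.6 ± 0.079 for MT1E (SD, n = 3). MT1X then stood at 5.48 ± 0.468, MT1F at 4.28 ± 0.286 and MT1M at 1.93 ± 0.206, which turns round the order of these 3 genes. MT2A and MT1E kept the top places on each scale, at a ratio of 8.66 with the transcript lengths.

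The summed FPKM of the metallothioneins was 171.7, 206.6 and 194.6 in LX-2Vector and 224.7, 212.6 and 221.9 in LX-2FAP (191.0 ± 17.7 against 219.7 ± 6.35, SD, n = 3). The groups did not overlap. As MT2A is most of the sum, this is largely the MT2A difference again, and no p is given for it.

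Ratios of counts within a library do not depend on how libraries are scaled. The ratio of MT2A to MT1F counts was 50.2, 54.3 and 51.4 in LX-2Vector and 65.4, 84.5 and 79.1 in LX-2FAP, and that of MT2A to MT1M was 78.7, 101.03 and 111.5 against 123.6, 160.5 and 133.6. Both ratios were higher in every LX-2FAP library than in any LX-2Vector library, with log2 differences of 0.55 for MT1F and 0.53 for MT1M. The 2-sided exact permutation p was 0.1 for each (0.2 after adjustment over the 4 ratios), which is the smallest that 3 libraries against 3 can give, so this design could not reach 0.05. As MT2A is in both ratios and its groups did not overlap, the separation is in part the MT2A difference again. MT1F and MT1M rest on few counts, and no share of such ratios over other gene pairs was computed.

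The ratios of MT2A to the other members overlapped. Against MT1E the ratio was 8.61, 10.5 and 9.92 in LX-2Vector and 10.2, 10.9 and 10.1 in LX-2FAP, a log2 difference of 0.11 (exact permutation p = 0.4, adjusted 0.5). Against MT1X it was 55.7, 62.3 and 69.7 and then 55.6, 76.4 and 88.0, a log2 difference of 0.21 (exact permutation p = 0.5, adjusted 0.5). The MT1X ratio was thus spread more widely in LX-2FAP than in LX-2Vector. LX-2FAP held its highest value and, by a narrow margin, its lowest.

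**Figure D3:**
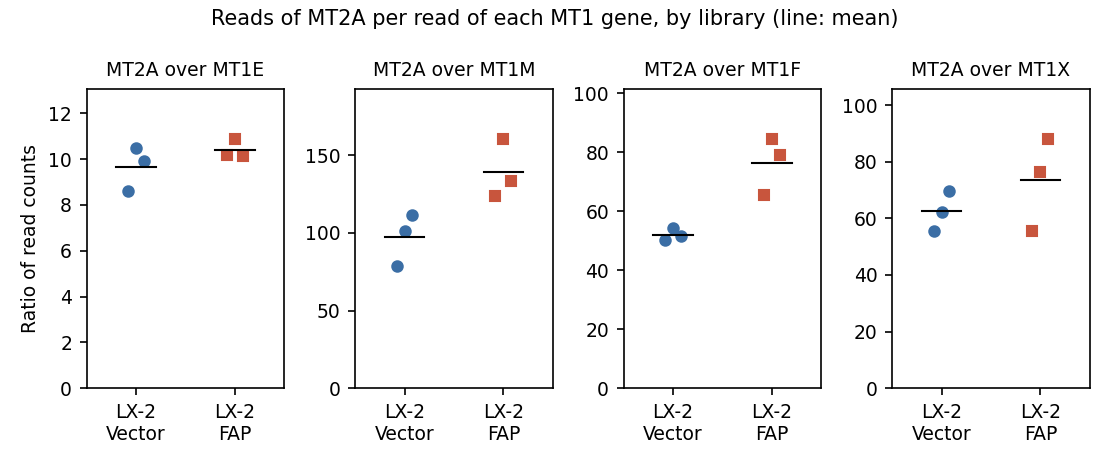
Ratio of MT2A counts to the counts of MT1E, MT1F, MT1M and MT1X in each library, with LX-2Vector and LX-2FAP libraries as points. The groups are apart for MT1F (50.2 to 54.3 against 65.4 to 84.5) and MT1M (78.7 to 111.5 against 123.6 to 160.5) and overlap for MT1E and MT1X.

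Across the 6 libraries MT1E moved with MT2A (Pearson r of log2 normalized counts 0.75) and MT1F with MT1M (0.74), while MT1M and MT2A moved apart (-0.58). These values describe 6 libraries that share a group difference and depth, and MT1F and MT1M rest on few counts. The genes whose normalized counts most resembled the mean profile of the 5 tested metallothioneins, among the 11553 tested genes whose counts averaged 100 or more, were GPD1L (r = 0.98), MSH6, SLC7A2, USF3 and INPP1 (each r = 0.96). The closest of 11553 genes over 6 libraries have a high r by selection alone, and no chance level was computed. The mean profile gave each of the 5 members equal weight. It was highest in LX-2FAP replicate 1 (0.16 on the log2 scale) and lowest in LX-2FAP replicate 2 (-0.14), so it did not follow the MT2A difference. None of the 5 genes most like the profile passed the test, with log2 fold changes from -0.012 to 0.0082.

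MTF1, the factor through which metals induce the family, was at 8.71, 8.47 and 7.85 FPKM in LX-2Vector and 7.91, 8.41 and 7.96 in LX-2FAP. The groups overlapped fully. The log2 fold change was -0.018 (SE 0.053, 95% confidence interval -0.13 to 0.094, adjusted p = 0.884, edgeR), an interval that leaves room for small changes either way.

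**Figure D4:**
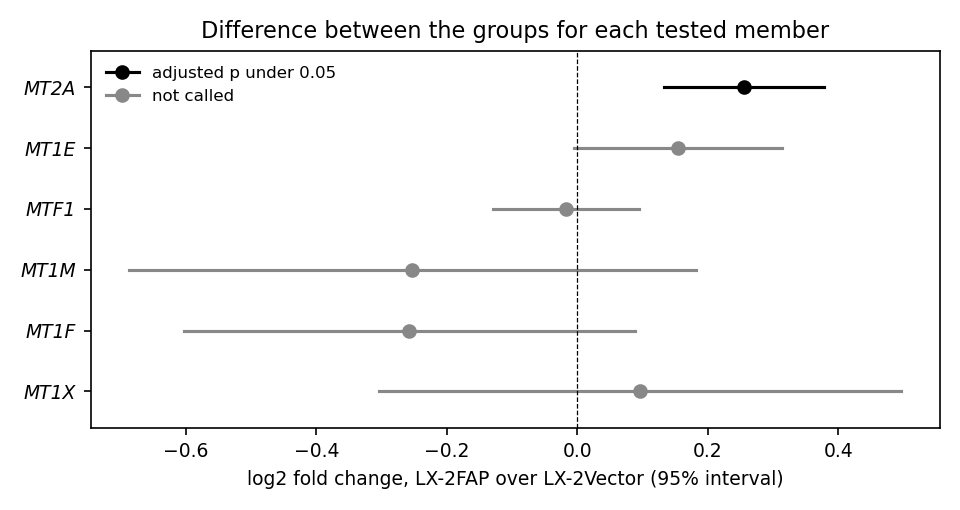
Log2 fold change of LX-2FAP over LX-2Vector for each tested metallothionein and MTF1 by edgeR, with 95% confidence intervals. The interval lies above 0 for MT2A (0.13 to 0.38) and includes 0 for MT1E, MT1F, MT1M, MT1X and MTF1.

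Zinc transporters move the metal that metallothioneins hold, the SLC30 family out of the cytosol and the SLC39 family into it. Of 24 such genes 17 were tested and 2 were called, both higher in LX-2FAP, against 5.29% of all tested genes called and 2.57% called higher. The median log2 fold change of the list was 0.050 against -0.013 over all tested genes. SLC30A6, which loads zinc into the early secretory pathway with SLC30A5, stood at 115.1, 121.8 and 115.5 CPM (normalized counts scaled to a common library depth) in LX-2Vector and 122.7, 141.3 and 139.6 in LX-2FAP, and it rose by 0.20 on the log2 scale (SE 0.053, adjusted p = 0.0451, edgeR). SLC39A6, a zinc importer, stood at 203.6, 212.8 and 206.7 CPM against 222.7, 238.9 and 230.5, and it rose by 0.15 (SE 0.041, adjusted p = 0.0451, edgeR). Neither gene's groups overlapped. Of the 17 tested genes, 3 had groups without overlap, against 26.4% of all tested genes. By edgeR, 4 of the 17 had an unadjusted p under 0.05, against 22.2%. Both calls were lost in each fit that left out a library other than LX-2FAP replicate 1. They were also lost with library size alone, where 5.73% of tested genes were called.

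SLC30A1, the zinc exporter of the plasma membrane and itself a target of MTF1, was at 59.0, 65.8 and 68.0 CPM against 65.2, 66.3 and 67.4, with a log2 fold change of 0.047 (SE 0.055, adjusted p = 0.679, edgeR). LX-2FAP lay inside the LX-2Vector range. SLC39A14, a zinc and iron importer, was the most counted of the list by CPM and had a log2 fold change of -0.054 (adjusted p = 0.495, edgeR).

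The copper handling genes, which take up, carry and export the other metal that metallothioneins bind, gave no call among 14 tested of 15 (median log2 fold change -0.015, with 2 at an unadjusted p under 0.05, against 22.2% of all tested genes, by edgeR, and 0 calls by DESeq2). The smallest adjusted p belonged to COX11, which delivers copper to cytochrome c oxidase. It stood at 73.9, 80.7 and 82.0 CPM in LX-2Vector and 85.2, 87.3 and 92.3 in LX-2FAP, with a log2 fold change of 0.16 (SE 0.052, adjusted p = 0.0717, edgeR). The reductase gene STEAP3 had -0.17 (adjusted p = 0.138) and CP, the gene of the copper-carrying ferroxidase ceruloplasmin, -0.60 from 10 to 30 counts a library (adjusted p = 0.256). Without LX-2FAP replicate 1 there was 1 call in this list, against 10.4% of all tested genes.

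Glucocorticoids are the other classical inducer of MT2A. Among 11 tested of 12 genes of a glucocorticoid-induced list, edgeR called 0, with 5 at an unadjusted p under 0.05 (22.2% of all tested genes), and DESeq2 called 1, against 8.58% of the genes it adjusted. The median log2 fold change was -0.091, and 3 of the 11 estimates lay above 0. The list also counts NR3C1, the gene of the glucocorticoid receptor itself (-0.058, adjusted p = 0.514, edgeR). KLF9, a transcription factor, was at 31.0, 34.1 and 37.1 CPM against 31.8, 25.4 and 24.8, with a log2 fold change of -0.31 (SE 0.090, adjusted p = 0.0577, edgeR). The clock gene PER1 had -0.29 (adjusted p = 0.0787) and the kinase gene SGK1 had 0.14 (adjusted p = 0.115). LX-2FAP replicate 1 lay with the LX-2Vector libraries for KLF9, and without it 3 genes of the list were called, against 10.4% of all tested genes.

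Heat shock genes share with metallothioneins their induction by heavy metals. Of 12 tested genes 4 were called, all higher in LX-2FAP, against 5.29% of all tested genes called and 2.57% called higher, and the median log2 fold change of the list was 0.082 against -0.013 over all tested genes. HSPA8, the constitutive cytosolic HSP70, was at 2895, 2926 and 2801 CPM against 3227, 3460 and 3331, and it rose by 0.22 (SE 0.036, adjusted p = 0.00761, edgeR). HSP90AA1, a cytosolic HSP90, rose by 0.26 (SE 0.046, adjusted p = 0.00815), and the mitochondrial chaperonin genes HSPD1 and HSPE1 rose by 0.22 (SE 0.049, adjusted p = 0.0215) and 0.29 (SE 0.079, adjusted p = 0.044).

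HSPA1A, a stress-inducible HSP70 gene, was not among the called genes. It stood at 279.2, 225.9 and 179.5 CPM in LX-2Vector and 175.5, 287.0 and 230.8 in LX-2FAP, a full overlap (HSPA1A is nearly identical to HSPA1B, so reads could be split between them; log2 fold change 0.012, SE 0.14, adjusted p = 0.9753, edgeR). The other heat shock genes were not called either. Their log2 fold changes were 0.0060 for HSPA6, 0.034 for BAG3, 0.079 for HSPA1B and 0.085 for DNAJB1. HSPH1 had 0.19, HSPB1 -0.18 and HSF1 -0.035. Of the called genes, HSPE1 shared 13.0% of its read-length stretches with other genes, the neighbouring HSPD1 among them, and its value is the least certain. Without LX-2FAP replicate 3 no heat shock gene was called, and 2 were called in each fit that left out LX-2Vector replicate 1, LX-2Vector replicate 3 (2.12% of tested genes called) or LX-2FAP replicate 2. The number of genes called over the whole table fell as well, from 967 to 26 when LX-2FAP replicate 3 was left out and to 129 when LX-2FAP replicate 2 was.

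**Figure D5:**
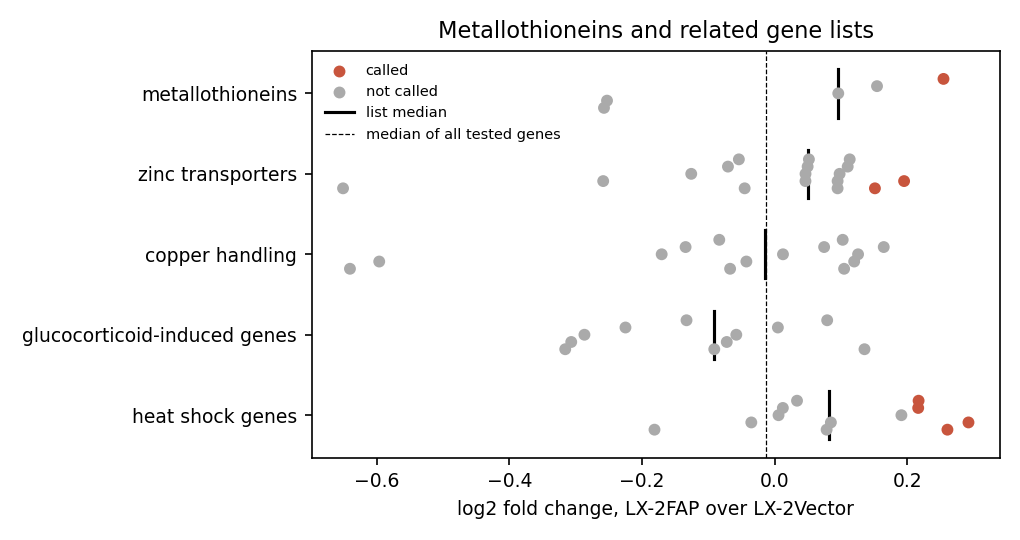
Log2 fold changes of LX-2FAP over LX-2Vector for each tested gene of the metallothionein, zinc transporter, copper handling, glucocorticoid-induced and heat shock lists, with called genes marked and a line at the median of each list. The medians are 0.096, 0.050, -0.015, -0.091 and 0.082, and the called genes are MT2A, 2 zinc transporters and 4 heat shock genes.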

How the data were processed

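RNA from 3 LX-2Vector and 3 LX-2FAP libraries was sequenced by the submitters, whose labels name ribosomal RNA depletion. Poly(A) selection is named as well in the published methods. The authors aligned the reads, and per the labels' processing notes used HISAT2 2.0.5, featureCounts 1.5.0-p3 and DESeq2 1.16.1. The authors deposited whole-number counts per gene, not normalized, and FPKM values that the authors computed from those counts and gene lengths. The notes name the build hg18, while 58337 of 60605 Ensembl identifiers were in GENCODE 29 (GRCh38), from which coordinates were taken. Columns of the authors' own comparisons were not used. Groups and replicate numbers came from the sample titles.

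Counts were tested with edgeR 4.0.16 (R 4.3.3; quasi-likelihood, TMM, default expression filter with a minimum count of 10 and minimum total of 15, no covariate), with p-values adjusted by Benjamini-Hochberg over 18275 genes and called under 0.05. Replicates differed by more than counting noise. The members, lists and tests were chosen with earlier results of these data known. Genes named are FAP, the members, other metallothionein loci with counts, called genes of each list or otherwise up to 3 with the smallest adjusted p, and the 5 genes with the most similar profile. SLC30A1, SLC39A14, NR3C1, heat shock genes not called, metallothionein loci without counts, the cell type markers and the flanking genes were singled out beyond that rule. Alternatives were DESeq2 1.42.0, limma 3.58.1 on log2(FPKM + 1) and log2(FPKM + 0.1), other scalings and filters, a replicate block, removal of GC or length trends, and leaving out each library. The edgeR test was checked on simulated counts, as a check of the code and not of the calls. No labels gave a batch or date.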

Additional observations from a re-analysis of the deposited data

How the results depend on the processing

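MT2A kept its direction in all 16 alternative fits. Its log2 fold change was 0.23 under limma with either pseudocount, where it was not called, and 0.18 to 0.32 when single libraries were left out. Metallothionein calls were 0 under both limma fits and at the study's cutoff, and 0 to 1 when single libraries were left out. MT1X ranged from -0.15 to 0.23 and MTF1 from -0.054 to 0.022 without single libraries, and MTF1 was 0.0056 with the GC trend removed and 0.019 with the length trend removed. The ratio of MT2A to MT1E was 9.67 in CPM and 8.66 with transcript lengths. Genes called over the table were 1606 with no filter, 2 under each limma fit, 1728 with the length trend removed and 26 to 1949 without single libraries. The split into higher and lower calls was 469 and 498, but 239 and 809 with library size alone, 600 and 198 with the GC trend removed and 1262 and 466 with the length trend removed. Zinc transporter calls were 0 with library size alone, under both limma fits and at the study's cutoff, 1 with the GC trend removed, and 0 to 2 without single libraries. Copper handling calls were 1 with no filter or with either trend removed, and 0 to 1 without single libraries. Glucocorticoid list calls were 1 under DESeq2, library size alone or the length trend, 2 with no filter and at the study's cutoff, and 0 to 3 without single libraries. Heat shock calls were 0 under both limma fits, 1 at the study's cutoff and 0 to 5 without single libraries. Fits without a library had fewer samples; the cause of the other shifts was not tested. MT1F, MT1M and MT1X, at 20 to 80 counts a library, are limited by depth.

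Replicate numbers did not pair the libraries (correlations of same-numbered deviations -0.04, 0.04 and -0.01). With the replicate block MT2A had a log2 fold change of 0.26 (adjusted p = 0.0248, edgeR) and 975 genes were called, and no member's call changed.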
